A study of Rattus norvegicus with 30 samples.

Results

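10 chemokine genes of the rat oesophagus (Cxcl1, Cxcl2, Ccl2, Ccl7, Ccl11, Ccl20, Ccl21, Cxcl10, Cxcl12 and Cx3cl1) were followed across 6 groups of rats. They were taken from a list of gene names chosen with earlier results of these data known. Counts among them are therefore descriptions beside the share of all genes. All 10 were measured, out of 14217 genes with a named probe set. Where a gene had several probe sets, the one with the highest mean over all arrays was used, which applied to Cxcl12 with its 3 probe sets. Chemokines are small secreted proteins that bind heparan sulphate and signal through G protein-coupled receptors on the surface of leukocytes. The inducible ones, such as Cxcl1, Cxcl2 and Ccl2, are switched on by interleukin 1, tumour necrosis factor and the transcription factor NF-kB, and draw neutrophils or monocytes into tissue. The homeostatic ones, such as Cxcl12 and Ccl21, are made constantly by stromal and lymphatic endothelial cells and guide resident and circulating lymphoid cells.

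RNA from frozen, pulverized oesophageal epithelium was measured on 30 Affymetrix arrays, 1 per rat, all from male Sprague-Dawley rats placed on their diet at 4 weeks of age. All of them were given the oesophageal carcinogen N-nitrosomethylbenzylamine (NMBA) as 4 intragastric doses of 2 mg/kg from week 5, so no group shows tissue without carcinogen. Untreated unedited rats were fed a zinc-deficient diet ad libitum (ZD, n = 5) or a zinc-sufficient diet pair-fed to them (ZS, n = 5). Other zinc-deficient rats were injected with an antimiR, a locked nucleic acid (LNA) that binds the microRNA miR-31. They had 20 mg/kg once to load and then 6 mg/kg on 9 occasions in the first 5 weeks, and either stopped (5-week antimiR, n = 5) or had 20 more doses (20-week antimiR, n = 5). The control rats had no injection, so oligonucleotide and vehicle cannot be told apart. Tissue was taken 48 hours after the last antimiR dose or 15 weeks after the first NMBA dose, and the labels do not say which applied to the 5-week group. In a separate experiment, miR-31-/- rats made by CRISPR/Cas9 in the same strain were fed the ZS (n = 4) or ZD diet (n = 6) and given the same NMBA treatment. Their miR-31+/+ littermates were not analysed here, and miR-31 was not measured on these arrays. Rats are named below by the number in their labels.

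The arrays fell into the unedited set, with array medians from 5.37 to 5.45 log2 units, and the knockout set, with medians from 5.81 to 5.93. Levels were therefore tested only within a set. Every value below is a log2 expression value, so a difference of 1 is a 2-fold change, and a fold given here is 2 to the power of the fitted difference. The words rose and fell are kept for genes where limma's moderated test gave a Benjamini-Hochberg adjusted p under 0.05 over all 14217 genes. The p-values measure the spread between individual rats. The squamous epithelium markers gave array means from 12.62 to 13.03 in all 6 groups, so the labelled tissue was present. Muscle markers varied widely, from 7.07 to 11.83 for smooth muscle and from 5.49 to 10.68 for skeletal muscle. In these pulverized samples, labelled as epithelium, more cells of a type and more RNA per cell cannot be told apart.

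The Cxcl1, Cxcl2 and Cxcl10 genes lie on chromosome 14 (GRCr8), at chr14:17477542-17479321, chr14:17465210-17467255 and chr14:15989066-15991263. Ccl2, Ccl7 and Ccl11 lie side by side on chromosome 10, at chr10:67503077-67504875, chr10:67514095-67515945 and chr10:67525975-67530576. Ccl20 lies at chr9:91837139-91839736, Ccl21 at chr5:61776411-61777515, Cxcl12 at chr4:152060781-152073628 and Cx3cl1 at chr19:10233326-10244856. All 10 are protein-coding genes.

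The sequences that bear on the design are the target of the antimiR and the proximal promoters of the inducible genes. The antimiR is directed at miR-31, whose mature rat form is given here with the seed (bases 2 to 8) in capitals, from RefSeq on GRCr8 at chr5:108714906-108714927 on the minus strand.
rno-miR-31a-5p: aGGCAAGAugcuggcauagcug

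RefSeq promoter sequences were found for 8 of the 10 genes, and not for Ccl2 and Ccl11. In the 250 bases before the start, both strands searched, the NF-kB consensus was found in 4 of these 8 (Cxcl1, Cxcl2, Ccl20 and Cxcl10), against 3.54% of 33469 promoters in the same table. The 4 are shown because Cxcl1 and Cxcl2 rose on zinc deficiency and Ccl20 and Cxcl10 did not. Each line holds the 200 bases before the start that the RefSeq promoter table uses, read along the gene, with the NF-kB match in capitals. For Ccl20 that start lies inside the gene's span given above, so the end of its window overlaps the gene.
Cxcl1, chr14:17479322-17479521, minus strand: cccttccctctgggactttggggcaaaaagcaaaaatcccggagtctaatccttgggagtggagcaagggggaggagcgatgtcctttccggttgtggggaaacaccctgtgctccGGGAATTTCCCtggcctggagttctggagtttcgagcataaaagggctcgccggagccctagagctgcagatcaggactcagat
Cxcl2, chr14:17467256-17467455, minus strand: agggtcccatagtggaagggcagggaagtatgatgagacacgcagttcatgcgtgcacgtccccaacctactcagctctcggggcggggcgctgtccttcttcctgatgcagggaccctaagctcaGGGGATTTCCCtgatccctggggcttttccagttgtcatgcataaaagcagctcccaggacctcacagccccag
Ccl20, chr9:91836959-91837158, plus strand: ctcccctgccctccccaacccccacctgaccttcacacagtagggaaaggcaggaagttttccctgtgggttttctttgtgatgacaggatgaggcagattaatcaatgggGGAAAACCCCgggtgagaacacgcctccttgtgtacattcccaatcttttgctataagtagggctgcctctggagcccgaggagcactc
Cxcl10, chr14:15988866-15989065, plus strand: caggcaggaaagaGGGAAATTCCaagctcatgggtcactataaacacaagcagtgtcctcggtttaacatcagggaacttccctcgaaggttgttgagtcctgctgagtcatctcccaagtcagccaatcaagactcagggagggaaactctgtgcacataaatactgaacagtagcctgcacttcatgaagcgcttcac

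In Cxcl1 the match begins 84 bases before the start, with an overlapping match on the other strand, and in Cxcl2 it begins 74 bases before the start, as a pair of overlapping matches on the same strand. In Ccl20 it lies 89 to 80 bases and in Cxcl10 187 to 178 bases before the start. The AP-1 motif TGANTCA was found in Ccl7 and Cxcl10, 2 of 8 genes against 6.34% of all promoters. The letters TATAAA were found in 3 of the 8 (Ccl7, Cxcl10 and Cx3cl1), against 12.9% of all promoters. These are matches of letters in a window, and factor binding was not measured here.

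**Figure D1:**
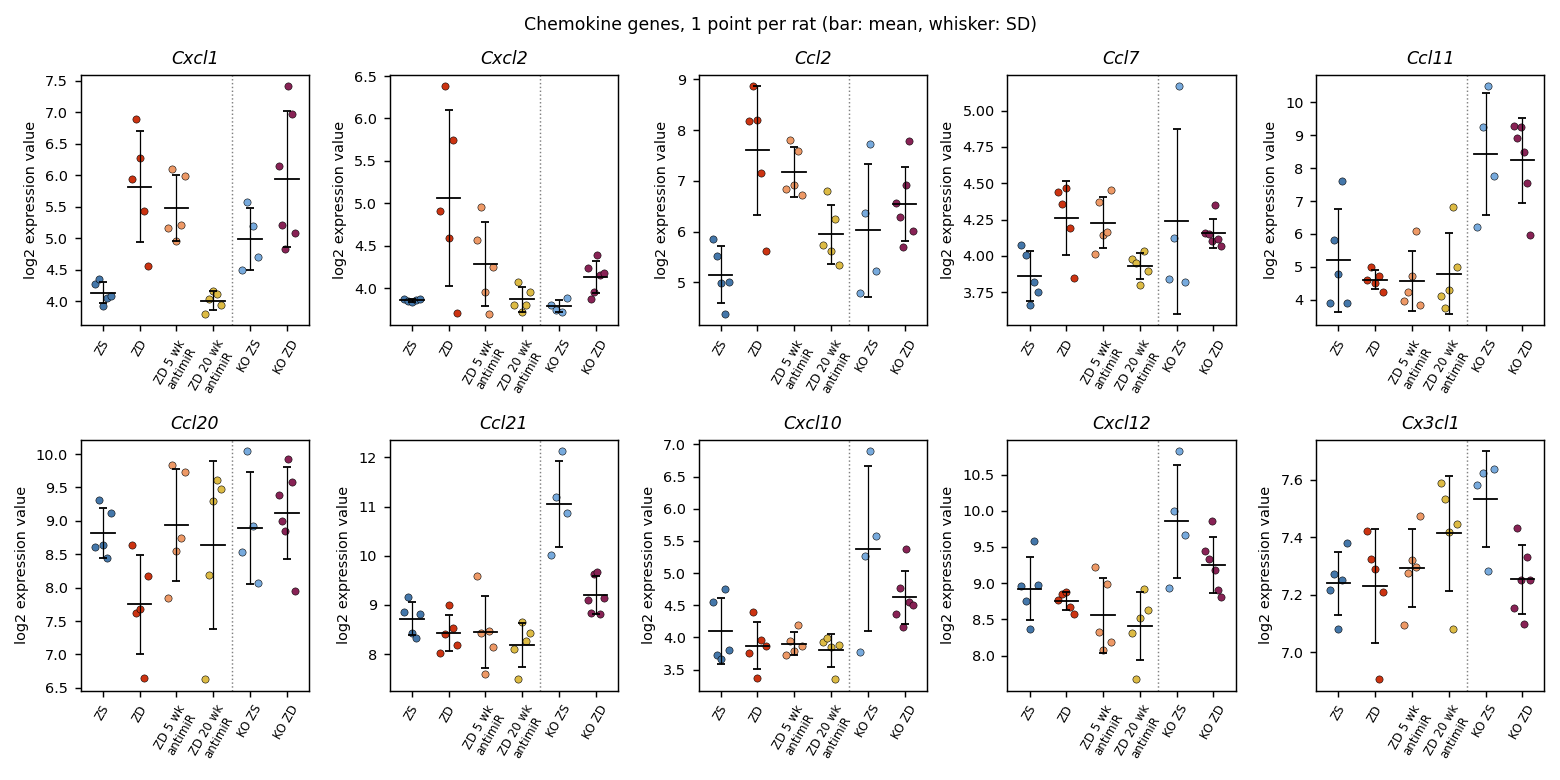
Log2 expression values (vertical axes) of the 10 chemokine genes in the 6 groups (horizontal axes), 1 point per rat, with the group mean as a bar and the SD as a whisker. The dotted line separates the unedited from the knockout set, whose levels are not compared. Cxcl1, Cxcl2 and Ccl2 are raised in most ZD rats, Cxcl1 is lower in every 20-week antimiR rat than in any ZD rat, Ccl2 still overlaps there, and Ccl21 is lower in every knockout ZD rat than in any knockout ZS rat.

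The comparison of ZD with ZS in untreated rats asks what zinc deficiency does to the chemokines of carcinogen-treated oesophagus. Expression of the neutrophil attractants Cxcl1 and Cxcl2 and of the monocyte attractant Ccl2 rose on zinc deficiency. These were 3 of the 10 genes, all upward, where 13.9% of all genes tested changed and 6.94% rose. The other 7 did not pass, and the median difference over the 10 was -0.09, beside 0.00 over all genes, with 4 of the 10 above 0.

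Cxcl1, a ligand of the neutrophil receptor Cxcr2, stood at 4.27, 4.36, 3.93, 4.06 and 4.08 in ZS rats 16 to 20 and at 5.94, 6.89, 6.27, 5.43 and 4.56 in ZD rats 11 to 15. Every ZD rat lay above every ZS rat, as was so for 11.4% of all genes in one direction or the other. Cxcl1 rose by 1.68 (SE 0.40, adjusted p = 0.0068, limma), or 3.20-fold, from a mean of 4.14 (SD 0.17) to 5.82 (SD 0.88).

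Cxcl2, a second Cxcr2 ligand, was nearly constant in ZS rats at 3.87, 3.84, 3.83, 3.87 and 3.87. In ZD rats 11 to 15 it stood at 4.91, 6.38, 4.59, 5.74 and 3.70. Rats 11 to 14 lay above all ZS rats, and rat 15 lay below them, so the groups overlapped. Cxcl2 rose by 1.21 (SE 0.29, adjusted p = 0.0067, limma), or 2.31-fold, with an SD of 0.02 on ZS and 1.04 on ZD. Cxcl2, like Cxcl1, Ccl7 and Cxcl10, is among the dimmest 30% of genes, and its flat ZS values may not be above background, so the fold holds for these values only. In a fit of the ZS and ZD rats alone the Cxcl2 call was lost (adjusted p = 0.0752).

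Ccl2, the main monocyte attractant and ligand of Ccr2, showed the largest difference of the 10 in this comparison. Its levels were 5.85, 5.53, 5.00, 4.38 and 5.00 in ZS rats 16 to 20 and 8.18, 8.86, 8.21, 7.15 and 5.62 in ZD rats 11 to 15. Only ZD rat 15 lay within the ZS range. Ccl2 rose by 2.45 (SE 0.52, adjusted p = 0.0027, limma), or 5.46-fold.

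Ccl7, a neighbour of Ccl2 on chromosome 10 that also attracts monocytes, was higher by 0.40 (SE 0.17, adjusted p = 0.115, limma) and did not pass. Its ZD rats stood at 4.44, 4.36, 4.47, 4.19 and 3.85 and its ZS rats ran from 3.66 to 4.08, with a median of 3.82. ZD rat 15 was the lowest of its group for Cxcl1, Cxcl2, Ccl2 and Ccl7 alike. Its skeletal muscle marker mean, 5.49, was the lowest of the ZD rats and its smooth muscle mean, 8.37, the highest. The part of this in its chemokine values was not tested. Ccl7 also passed with array weights (0.43, adjusted p = 0.0203) and in a fit of the unedited rats alone (adjusted p = 0.0274). Without rat 15, 4 chemokines rose, with Ccl7 at 0.50 (adjusted p = 0.0429), among 2424 genes called in place of 1974.

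Ccl20, which epithelial cells make and which attracts cells that bear Ccr6, was lower on ZD by 1.07 (SE 0.50, adjusted p = 0.157) without passing. Its levels ran from 8.44 to 9.31 on ZS, with a median of 8.63, and from 6.65 to 8.64 on ZD, with a median of 7.68. The differences of Ccl11 (the eosinophil attractant eotaxin), Ccl21, Cxcl10, Cxcl12 and Cx3cl1 were -0.59, -0.29, -0.23, -0.18 and -0.01, with adjusted p from 0.603 to 0.969. Of these, Cx3cl1 had the narrowest 95% interval, from -0.21 to 0.19, and Ccl11 the widest, from -2.14 to 0.96. Ccl11 ran from 3.90 to 7.62 in ZS rats and from 4.22 to 5.01 in ZD rats, and its interval rests on the spread over all 6 groups.

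In the wider chemokine system the counts of called genes can be read against the 13.9% of all genes that changed. Of 21 other ligands measured from a list of 26, 2 rose and 1 fell. Cxcl14, a chemokine of epithelial cells, rose by 2.03 (SE 0.25), with ZS rats from 4.26 to 5.06 and ZD rats from 6.02 to 7.36, and Ccl6 rose by 1.11, while Ccl22 fell by 0.40. Of 12 receptors measured from a list of 18, only Cxcr4, the receptor of Cxcl12, rose, by 0.86 (SE 0.24, adjusted p = 0.018). The receptors of the genes that rose did not pass, with Cxcr2 at -0.35 (adjusted p = 0.222) and Ccr2 at 0.31 (adjusted p = 0.167), and neither did Ccr1, Ccr3, Ccr6, Cxcr3 and Cx3cr1. Of 12 atypical receptors and processing enzymes 1 rose, the sheddase Adam17 by 0.32. Of 24 upstream cytokines and NF-kB regulators measured, Il1b rose by 0.95, the NF-kB inhibitor Nfkbia rose by 0.60, and Stk40, a miR-31 target that represses NF-kB signalling, fell by 0.40.

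Markers of other cell types also moved between these diets, and their part in the chemokine values was not tested. Smooth muscle markers fell in 10 of 11 measured genes, with array means of 7.07 to 8.37 for ZD and 9.12 to 10.60 for ZS. Blood endothelium markers rose in 4 of 9, among them Sele and Selp, the selectins that leukocytes roll on, by 1.19 and 0.97, with array means of 6.09 to 6.33 for ZD and 5.55 to 5.86 for ZS. Of the macrophage and monocyte markers 1 of 12 rose, with array means from 6.07 to 6.31 against 5.73 to 6.04. Of the neutrophil markers 5 of 10 were measured, none passed, with array means of 3.90 to 4.21 for ZD and 4.06 to 4.27 for ZS. With the array mean of the smooth muscle markers as a covariate, which itself differs with diet, all 3 chemokine calls were lost: Cxcl1 stood at 0.83 (adjusted p = 0.479), Cxcl2 at 0.49 (adjusted p = 0.554) and Ccl2 at 1.75 (adjusted p = 0.225).

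**Figure D2:**
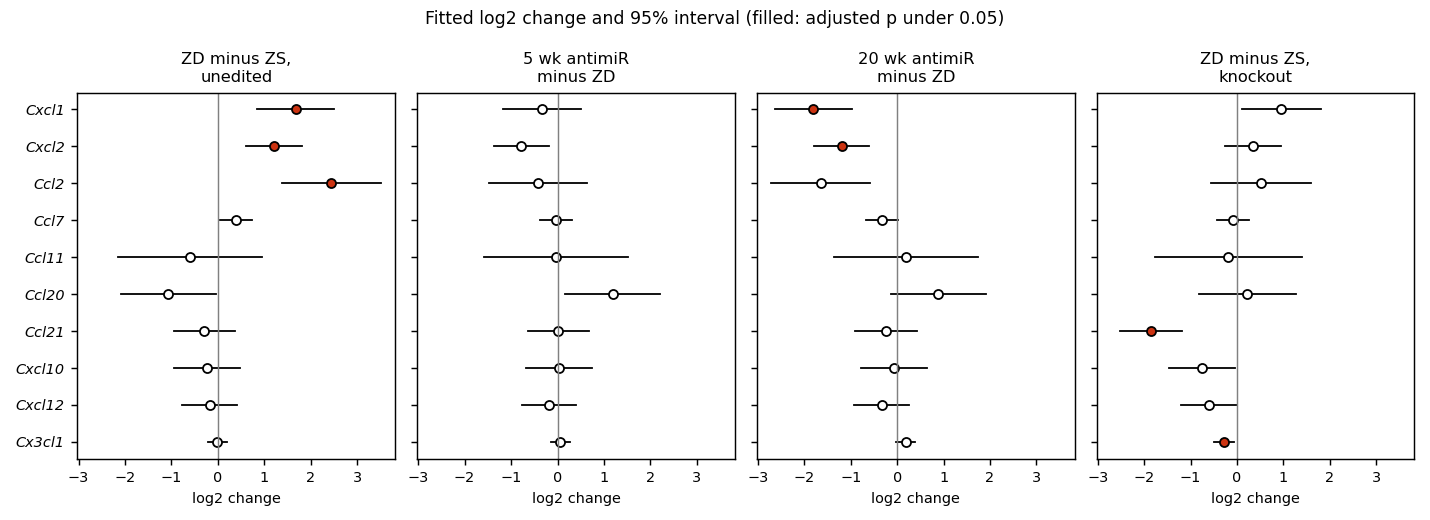
Fitted log2 differences (horizontal axes) of the 10 chemokine genes (vertical axis) in 4 comparisons, each with its 95% interval as a line; filled points passed an adjusted p of 0.05 over all genes. Cxcl1, Cxcl2 and Ccl2 lie to the right in the diet comparison of unedited rats and to the left after 20 weeks of antimiR, where Ccl2 is open, and Ccl21 lies far to the left in knockout rats.

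The comparisons of antimiR-treated with untreated ZD rats ask whether blocking miR-31 alters the chemokines of zinc-deficient oesophagus. They share the untreated ZD rats with the diet comparison, so a rise on the diet and a fall under antimiR are not independent. After 20 weeks Cxcl1 and Cxcl2 fell, 2 of the 10 genes, where 0.647% of all genes changed and 0.485% fell. That share rests on 92 genes and is unstable, with 9 to 379 genes called when 1 rat was left out. After 5 weeks no chemokine passed, and neither did any other gene (0% of genes tested by limma, with 1021 genes and 2 of the 10 chemokines, Cxcl2 and Ccl20, at an unadjusted p under 0.05).

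In the 20-week antimiR rats 1 to 5 Cxcl1 stood at 3.80, 4.04, 4.16, 4.12 and 3.94, below every ZD rat, as was so in either direction for 2.6% of all genes. It fell by 1.81 (SE 0.40, adjusted p = 0.0294, limma), which is 3.50-fold. In the 5-week antimiR rats 6 to 10 it stood at 5.16, 6.09, 4.96, 5.21 and 5.99, within the range of the untreated ZD rats, with a difference of -0.33 (adjusted p = 0.884). The Cxcl1 call after 20 weeks was close to the threshold, and it was lost when any 1 of antimiR rats 1, 3, 4 and 5 or ZD rats 11, 12, 13 and 14 was left out, with adjusted p up to 0.131. The same happened in a fit of those 2 groups alone (adjusted p = 0.0998) and when smooth muscle level was a covariate, at -1.40 (adjusted p = 0.121).

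Cxcl2 stood at 3.80, 4.07, 3.71, 3.80 and 3.96 in the 20-week rats and at 4.57, 4.96, 3.96, 3.70 and 4.25 in the 5-week rats. The 20-week rats lay below ZD rats 11 to 14 and above rat 15. Cxcl2 fell by 1.20 after 20 weeks (SE 0.29, adjusted p = 0.04997, limma), at the very edge of the threshold, and the call was lost in 7 of the 10 fits that left out 1 rat (antimiR rats 1, 3, 4 and 5 and ZD rats 11, 12 and 14, adjusted p up to 0.167). After 5 weeks the difference was -0.78 (adjusted p = 0.547).

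Ccl2 stood at 5.74, 6.81, 5.62, 6.25 and 5.34 in the 20-week rats and at 6.83, 7.81, 6.93, 7.60 and 6.72 in the 5-week rats. The 5-week rats lay within the ZD range, and 4 of the 5 20-week rats lay above its lowest member, ZD rat 15 at 5.62. The difference after 20 weeks was -1.65 (SE 0.52, adjusted p = 0.126), which did not pass. Without ZD rat 15 it was -2.15 and passed (adjusted p = 0.0183), and with array weights it was -2.03 (adjusted p = 0.0136). After 5 weeks the difference was -0.42 (adjusted p = 0.886).

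Ccl7 stood from 3.80 to 4.03 in the 20-week rats, with a difference of -0.33 (adjusted p = 0.357). Ccl20 pointed the other way, at 0.89 after 20 weeks (adjusted p = 0.405) and 1.19 after 5 weeks (adjusted p = 0.599). Its 20-week rats were scattered, at 6.63, 8.20, 9.30, 9.61 and 9.48, of which 3 lay above all ZD rats and 1 below them. None of the other 5 genes passed. In the 20-week, 5-week and untreated ZD rats the group means were 4.79, 4.57 and 4.61 for Ccl11, 8.19, 8.44 and 8.43 for Ccl21, 3.80, 3.90 and 3.87 for Cxcl10, and 8.41, 8.56 and 8.75 for Cxcl12. For Cx3cl1 they were 7.41, 7.29 and 7.23. Ccl11 was again uneven, from 3.74 to 6.83 in the 20-week and from 3.83 to 6.08 in the 5-week rats. Over all 10 genes the median difference was -0.28 after 20 weeks and -0.04 after 5 weeks, beside -0.01 and 0.00 over all genes.

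Among the other ligands 1 of 21 fell after 20 weeks, namely Cxcl14 by 1.12 (adjusted p = 0.028), and no receptor, atypical receptor, processing enzyme or upstream regulator passed. Il1b differed by -0.75 (adjusted p = 0.216), the inhibitor Nfkbia by -0.17 (adjusted p = 0.575) and the miR-31 target Stk40 by -0.05 (adjusted p = 0.841). The macrophage and monocyte markers had array means from 5.56 to 5.70 in the 20-week rats, below the ZD range of 6.07 to 6.31, with 0 of 12 called. Of the blood endothelium markers 2 of 9 fell, Sele by 1.19 and Selp by 0.93, with array means from 5.54 to 6.00 beside 6.09 to 6.33 on ZD. The smooth muscle means of the 20-week rats, from 7.21 to 9.82, reached into both the ZD and the ZS range. The part of these cell types in the chemokine values was not tested.

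Set directly against each other, the 20-week and 5-week antimiR rats differed in Cxcl1 by -1.47 (SE 0.40), and every 20-week rat lay below every 5-week rat, as was so in either direction for 0.943% of all genes. The adjusted p was 0.356, so the difference did not pass. In this comparison 3 genes were called in all, 0.0211% of those tested, with 868 genes and 2 chemokines, Cxcl1 and Ccl2, at an unadjusted p under 0.05. Of 24 upstream cytokines and NF-kB regulators 1 was called, higher in the 20-week rats. Il18, on that list, ran from 7.27 to 7.68 in the 5-week and from 8.05 to 9.16 in the 20-week rats. No other ligand, receptor, atypical receptor or processing enzyme on the lists passed. Ccl2 differed by -1.23 (adjusted p = 0.746) and Cxcl2 by -0.42 (adjusted p = 0.897). The 5-week and 20-week effects on the 10 genes were therefore not shown to differ. Since the labels leave the sampling time of the 5-week rats unclear, duration of treatment and time of sampling cannot be told apart here. The same holds for the comparisons of 5-week rats with ZD and ZS rats.

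The antimiR rats were also set against the ZS rats. After 5 weeks Cxcl1 and Ccl2 remained above ZS, with every rat of one group above every rat of the other (8.23% of all genes were separated in this way). Cxcl1 was higher by 1.35 (SE 0.40, adjusted p = 0.0353) and Ccl2 by 2.03 (SE 0.52, adjusted p = 0.0138), 2 of the 10 genes where 9.08% of all genes changed and 4.6% were higher. The Ccl2 call held in all 10 fits that left out 1 rat. The Cxcl1 call was lost in 6 of them (antimiR rats 7 and 10 and ZS rats 16, 18, 19 and 20, adjusted p up to 0.0958). Both were lost with the smooth muscle covariate, at 0.77 (adjusted p = 0.404) and 1.55 (adjusted p = 0.180). Cxcl2 was at 0.43 (adjusted p = 0.399) and Ccl7 at 0.37 (adjusted p = 0.177).

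After 20 weeks no chemokine differed from ZS, where 3.63% of all genes did, and none of the 10 had an unadjusted p under 0.05 (2685 genes did). For Cxcl1 the difference from ZS was -0.13, with a 95% interval from -0.96 to 0.70, and for Ccl2 it was 0.80, with an interval from -0.26 to 1.86. The interval for Ccl2 includes a 2-fold difference. By group mean, Cxcl1 was ordered ZD (5.82), 5-week antimiR (5.48), ZS (4.14) and 20-week antimiR (4.01). Only the step between 5-week antimiR and ZS passed. Ccl2 was ordered ZD (7.60), 5-week antimiR (7.18), 20-week antimiR (5.95) and ZS (5.15), with no adjacent step past the threshold. Of the other ligands, Cxcl14 remained above ZS in both antimiR groups, by 1.62 after 5 weeks and by 0.91 after 20 weeks.

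**Figure D3:**
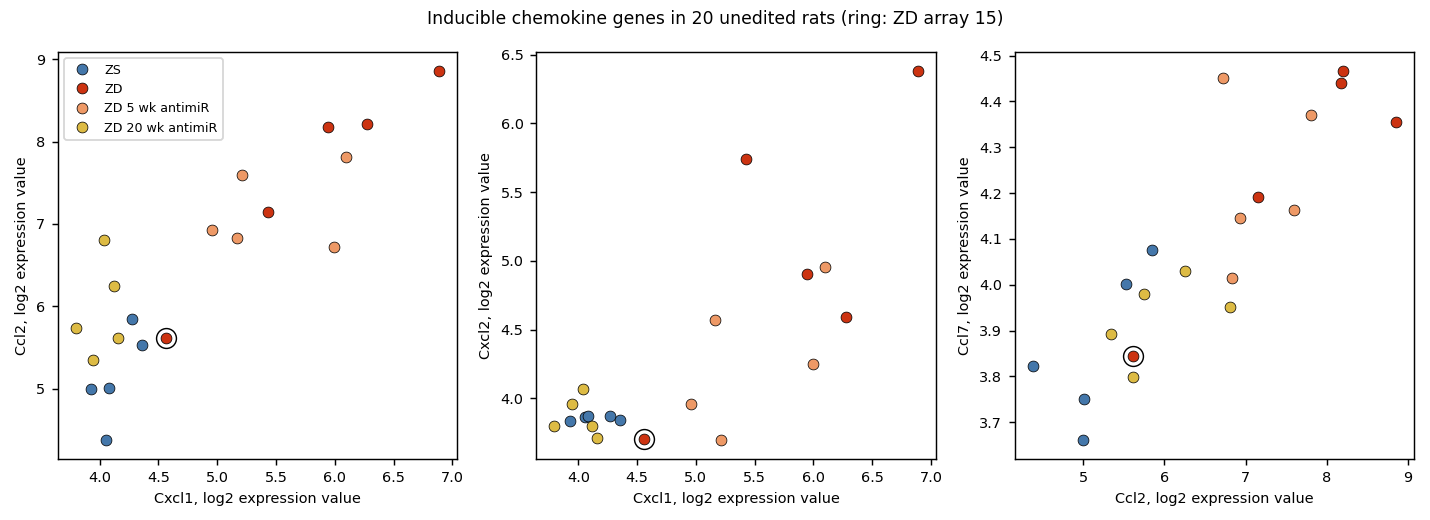
Log2 expression values of pairs of inducible chemokine genes in the 20 unedited rats, 1 point per rat, coloured by group; the ringed point is ZD rat 15. Rats high in Cxcl1 are high in Ccl2. Rat 15 lies near the ZS and 20-week antimiR rats in all 3 plots, though its Cxcl1 value is above all of theirs.

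Most pairs of the inducible genes varied together among the unedited rats, and less evenly among the knockouts. Over the 20 unedited arrays the Pearson correlation was 0.88 between Cxcl1 and Ccl2, 0.88 between Cxcl1 and Ccl7, 0.87 between Ccl2 and Ccl7, 0.78 between Cxcl1 and Cxcl2 and 0.72 between Cxcl2 and Ccl2. After the group means were subtracted the values were 0.76, 0.78, 0.71, 0.67 and 0.55. Cxcl2 and Ccl7 were less alike, at 0.61, and at 0.37 after subtraction. Over the 10 knockout arrays the values for the same 6 pairs were 0.70, 0.19, 0.72, 0.73, 0.26 and -0.14. The points share their tissue sample and array, so these are descriptions. Among all genes, the ones most like Cxcl1 were Sele (0.89), Ccl7 and Ccl2, and the ones most like Ccl7 were Cxcl1, Ccl2 and Sele (0.86). The nearest to Cxcl2 were Ptgs2, the inducible cyclooxygenase (0.92), the amino acid transporter Slc6a14 (0.91) and Sptssa (0.90). Ptgs2 in turn is an NF-kB target known in inflamed epithelium.

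The remaining genes followed other patterns in the same 20 rats. Cxcl10, an interferon-induced attractant of T cells, was most like Cxcl11 (0.88), which binds the same receptor Cxcr3, and Ubd (0.78). Cxcl12 was most like Cd48, Pkig and Emp3 (0.91, 0.89 and 0.89). Ccl21 was most like Reln, Lyve1 and Mmrn1 (0.84, 0.81 and 0.80), all of them on the list of lymphatic endothelium markers, and the values after subtracting the group means were 0.92, 0.79 and 0.85. Ccl11 was most like Frzb (0.92), Krt10 (0.91) and Irx2 (0.88). For Ccl20 and Cx3cl1 the closest genes were Agxt2 (0.77) and P22k15 (0.73). Between Ccl20 and Cxcl1 the correlation was -0.11, or 0.29 after subtracting the group means, and 0.74 over the 10 knockout arrays.

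The comparison of ZD with ZS in knockout rats asks what the diet does without miR-31. Here the lymphoid and dendritic cell attractant Ccl21 fell on zinc deficiency, and Cx3cl1 fell slightly. These were 2 of the 10 genes, where 21.4% of all genes changed and 12% fell. None rose, Cxcl1 being the closest. The median difference over the 10 was -0.13, beside 0.01 over all genes.

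Ccl21, the ligand of Ccr7 made by lymphatic endothelium, stood at 10.02, 11.19, 12.12 and 10.87 in knockout ZS rats 30 to 33 and at 9.10, 8.83, 9.63, 9.68, 8.81 and 9.14 in knockout ZD rats 34 to 39. Every ZD rat lay below every ZS rat, as was so in either direction for 14.3% of all genes. Ccl21 fell by 1.85 (SE 0.33, adjusted p = 0.0003, limma), which is 3.61-fold, and it passed in all 10 fits that left out 1 rat. Without ZS rat 32, the highest, it fell by 1.49 (adjusted p = 0.0035).

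Cx3cl1, a membrane-bound chemokine that is cleaved by the sheddases Adam10 and Adam17, fell by 0.28 (SE 0.10, adjusted p = 0.0486, limma), which is 1.21-fold. Its levels were 7.58, 7.62, 7.28 and 7.64 in knockout ZS rats 30 to 33, and they ran from 7.10 to 7.43 in knockout ZD rats, so ZS rat 32 lay among the ZD rats. The Cx3cl1 call was lost in 8 of the 10 fits that left out 1 rat, all but those without ZS rat 32 and ZD rat 35, with adjusted p up to 0.125. It was also lost in 5 of the 9 alternative settings, with adjusted p up to 0.108.

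Cxcl1 stood at 4.49, 5.57, 5.19 and 4.70 in knockout ZS rats and at 6.15, 5.20, 4.83, 7.41, 6.97 and 5.09 in knockout ZD rats. Rats 34, 37 and 38 lay above all ZS rats and the other 3 ZD rats lay among them. The difference was 0.95 (SE 0.41, adjusted p = 0.0992) and did not pass, except without ZD rat 36, where it was 1.18 (adjusted p = 0.0392). Cxcl2 ran from 3.72 to 3.89 on ZS and from 3.88 to 4.39 on ZD, with a difference of 0.34 (adjusted p = 0.444). In a fit of the knockout rats alone this difference passed (adjusted p = 0.0425). Ccl2 stood at 4.80, 6.37, 7.72 and 5.22 on ZS and ran from 5.70 to 7.78 on ZD, with a difference of 0.52 (adjusted p = 0.527), and the groups overlapped widely.

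Ccl7, Ccl11 and Ccl20 differed by -0.08, -0.19 and 0.22, with adjusted p from 0.785 to 0.897. Cxcl10 differed by -0.76 (adjusted p = 0.123), with ZS rats at 3.78, 5.27, 6.89 and 5.58 and ZD rats from 4.17 to 5.37. Without ZS rat 30, the low one, Cxcl10 fell by 1.29 (adjusted p = 0.0026). Cxcl12 differed by -0.60 (adjusted p = 0.145), with ZS rats at 8.93, 10.00, 10.82 and 9.66 and ZD rats from 8.80 to 9.87. It fell by 0.91 without ZS rat 30 (adjusted p = 0.025) and by 0.99 when the mean of its 3 probe sets was used (adjusted p = 0.0038), since the probe set with the lowest level differed by -1.72 and the other unused one by -0.64.

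**Figure D4:**
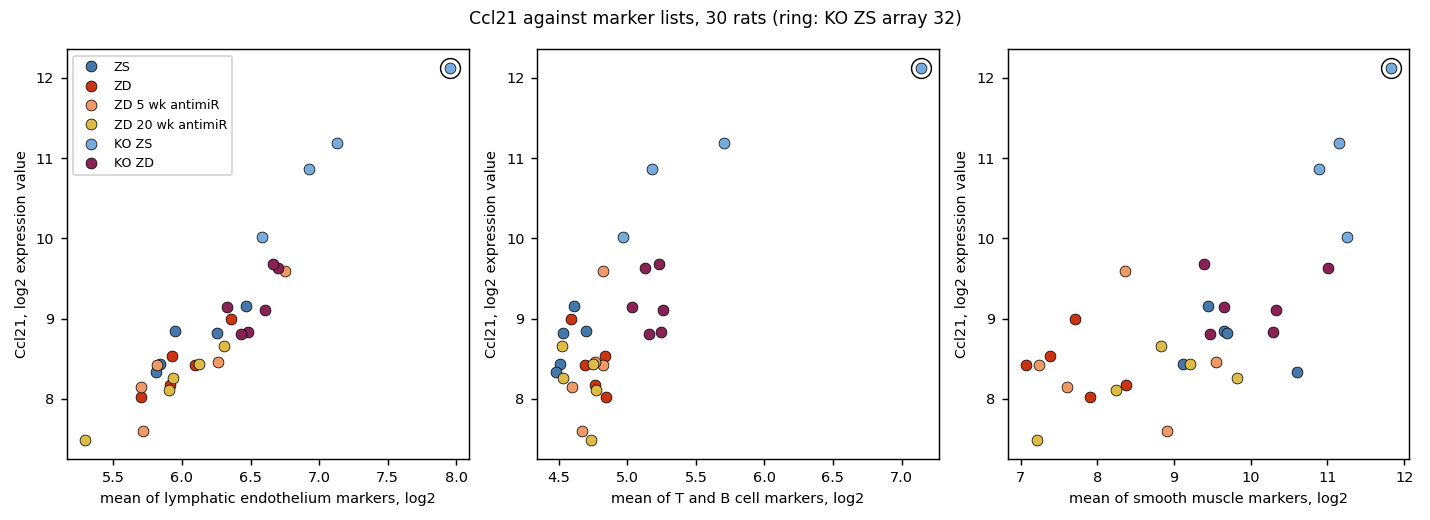
Ccl21 (vertical axes, log2 expression value) against the array mean of 3 marker lists (horizontal axes, log2) in all 30 rats, 1 point per rat, coloured by group; the ringed point is knockout ZS rat 32. Among the knockout rats, every ZS rat lies above every ZD rat in Ccl21, the marker means overlap between the diets, and rat 32 is the highest on every axis; levels are not compared between the unedited and knockout sets.

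Markers of other cell types also differed between the diets in the knockout rats, where 21.4% of all genes changed and 12% fell. The lymphatic endothelium markers fell in 2 of 6 (Lyve1 by 0.97, adjusted p = 0.0499, and Mmrn1 by 1.12, adjusted p = 0.0486), with array means from 6.58 to 7.96 on ZS and from 6.33 to 6.70 on ZD. The T and B cell markers fell in 3 of 11 (4.97 to 7.14 against 5.03 to 5.26), the macrophage and monocyte markers in 5 of 12 (6.43 to 8.31 against 6.12 to 6.73), the fibroblast markers in 3 of 8 (10.18 to 11.95 against 9.58 to 10.75), the blood endothelium markers in 2 of 9 (median difference -0.38) and the smooth muscle markers in 5 of 11 (10.89 to 11.83 against 9.38 to 11.00). Of the dendritic and Langerhans cell markers 1 of 5 fell, and of the skeletal muscle markers 1 of 10, or 0 and 1 without ZS rat 32. Of 5 neutrophil markers measured 1 rose and 1 fell, or 0 and 1 without that rat. Of 10 eosinophil and mast cell markers 1 fell, or 0 without it, and of 11 squamous epithelium markers 1 rose, with or without it. ZS rat 32 was the highest knockout rat for the lymphatic, T and B cell, macrophage and fibroblast means. Without it, 0 of 6 lymphatic, 0 of 11 T and B cell and 0 of 8 fibroblast markers fell. Of the others, 1 of 9 blood endothelium, 2 of 11 smooth muscle and 3 of 12 macrophage markers fell. The median differences without rat 32 were -0.33 for lymphatic, -0.07 for T and B cell and -0.50 for fibroblast markers. They were -0.16 for blood endothelium, -1.09 for smooth muscle and -0.37 for macrophage markers, so a lost call does not show equal levels. In that fit 1566 genes were called in place of 3049, and 2 of the 10 chemokines, Ccl21 and Cx3cl1, still fell. With the smooth muscle mean in the model, which itself differs with diet, Ccl21 still fell, by 1.70 (adjusted p = 0.00475, limma). It passed in all 9 alternative settings, with adjusted p up to 0.0100. The part of the lymphatic, blood endothelial, fibroblast, smooth muscle, skeletal muscle and immune cells in the Ccl21 difference was not tested.

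In the wider pathway of the knockout rats, counts can be read against the 21.4% of all genes that changed and the 12% that fell. Of 21 other ligands 2 fell, Ccl5 by 1.10 and Ccl24 by 0.80. Cxcr2, the receptor of Cxcl1 and Cxcl2, rose by 0.60 (adjusted p = 0.024) as the only one of 12 receptors. The ligand and receptor counts are not above the shares over all genes. Cxcr4 was at -0.67 (adjusted p = 0.052) and the Cxcl12 scavenger Ackr3 at -0.57 (adjusted p = 0.060). Of 12 atypical receptors and processing enzymes, 4 fell and 1 rose. The scavenger Ackr1 of venules fell by 0.77, Adam10 by 0.61, Mmp2 by 0.81 and Sdc4 by 0.36, and Adam17 rose by 0.30. Of 24 upstream genes, 3 rose (Il1rn, which encodes the interleukin 1 receptor antagonist, by 1.16, Myd88 by 0.40 and Nfkbiz by 0.48) and 5 fell (Irf1 by 1.02, Il17ra by 0.51, Nfkb1 by 0.36, Ifngr1 by 0.33 and Rela by 0.32). Without ZS rat 32 the receptors held no call, 1 of the other ligands and 2 of the 12 atypical receptors and enzymes fell, and 1 upstream gene rose and 4 fell.

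**Figure D5:**
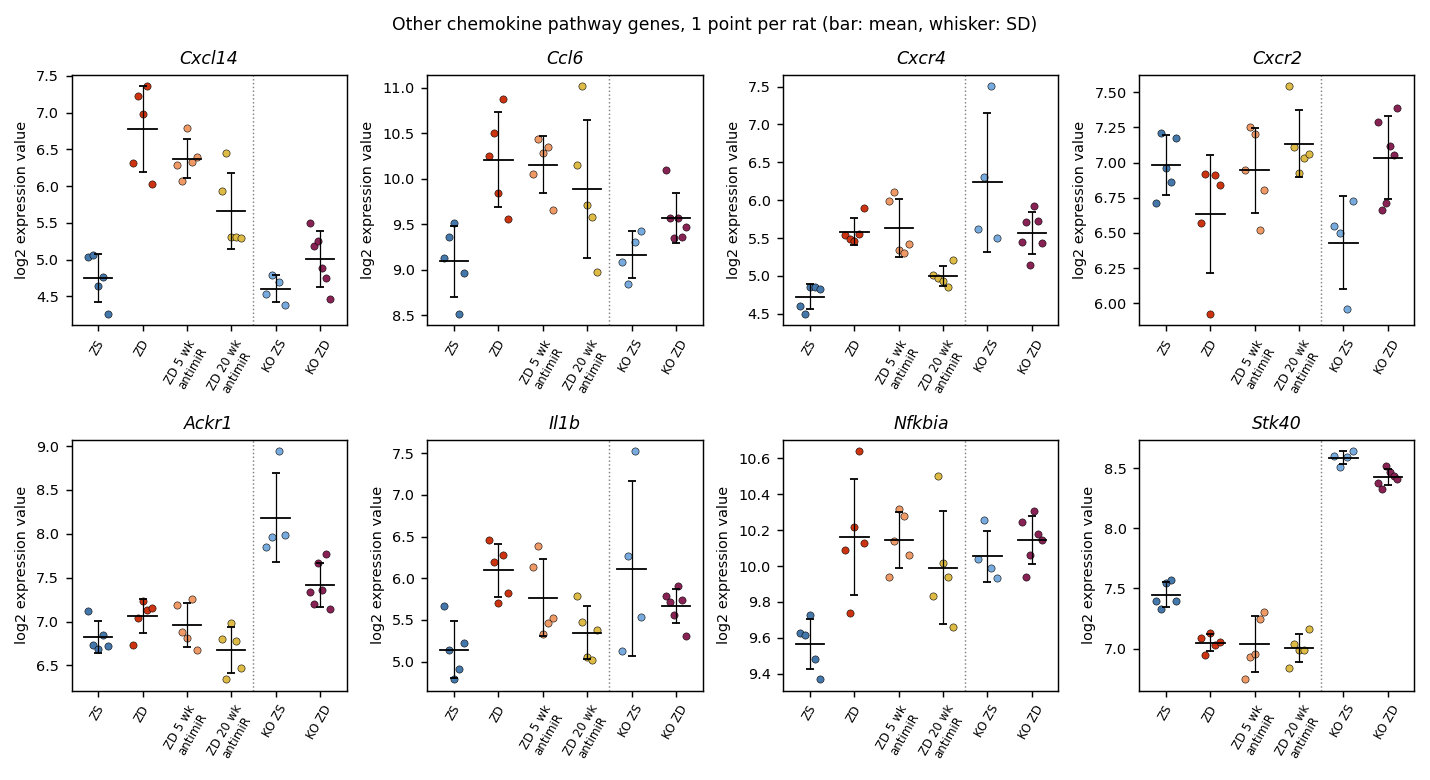
Log2 expression values (vertical axes) of 8 other genes of the chemokine system in the 6 groups (horizontal axes), 1 point per rat, with the group mean as a bar and the SD as a whisker; the dotted line separates the sets whose levels are not compared. Cxcl14 and Cxcr4 are higher in all ZD than in all ZS unedited rats, and Ackr1 is lower in all knockout ZD than in all knockout ZS rats.

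Whether the diet acts differently in knockout and unedited rats was tested as the difference between the diet effects, which does not need levels to be comparable between the sets. Genotype and experiment cannot be told apart in it. Of the 10 genes only Ccl21 passed, where 8.39% of all genes did, with a diet effect lower by 1.56 in knockout than in unedited rats (SE 0.46, 95% interval from -2.51 to -0.61, adjusted p = 0.0353, limma). The unedited effect was -0.29 and the knockout effect -1.85. This call was lost in 10 of the 20 fits that left out 1 rat, those without ZD rats 12, 13 and 14, ZS rats 18 and 19, knockout ZS rats 31 and 32 and knockout ZD rats 34, 35 and 39. Without knockout ZS rat 32 the difference was -1.20 (adjusted p = 0.112).

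For the inducible genes none of these contrasts passed over all 30 rats. The difference between the effects was -1.93 for Ccl2 (95% interval from -3.45 to -0.41, adjusted p = 0.102), -0.87 for Cxcl2 (adjusted p = 0.205), -0.73 for Cxcl1 (adjusted p = 0.494) and -0.48 for Ccl7 (adjusted p = 0.229). For Ccl20 it was 1.29 (adjusted p = 0.281). Ccl2 passed without ZD rat 15 (-2.43, adjusted p = 0.0227) or without knockout ZS rat 30 (-2.34, adjusted p = 0.0431), and Cxcl2 passed without ZD rat 15 (-1.21, adjusted p = 0.024). Over the 10 genes 2 of the differences lay above 0, with a median of -0.50 beside -0.01 over all genes. Counts in the wider pathway can be read against the 8.39% of all genes that passed. Of 21 other ligands 2 passed downward, Cxcl14 (-1.63) and Ccl24 (-0.96). Of 12 receptors 2 passed downward, Cxcr4 (-1.53) and Ccr2 (-0.66), and 1 upward, Cxcr2 (0.95). Of 12 atypical receptors and processing enzymes 2 passed downward, Ackr1 (-1.01) and Adam10 (-0.77). Of 24 upstream genes 3 passed downward, Il1b (-1.39), Il17ra (-0.70) and Nfkb1 (-0.52), and 1 upward, Il1rn (1.34). Without knockout ZS rat 32, 1 of the other ligands, 1 receptor and 1 atypical receptor or enzyme passed downward, and 1 upstream gene passed upward and 2 downward, among 615 genes called in place of 1193.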

How the data were processed

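The authors deposited log2 expression values for 31099 probe sets on 30 arrays. The submitters' processing notes name Affymetrix Expression Console and RMA (versions not given in the sources used here). Arrays of the 20 unedited and 10 knockout rats had separate medians and were taken as normalized separately. Probe sets with 1 gene symbol (20826) were kept, and the brightest per gene gave 14217 genes. A limma model (version 3.58.1, under R 4.3.3) estimated each group's mean over all 30 arrays, and p-values were Benjamini-Hochberg adjusted over all genes. No sample number occurs in more than 1 group, so nothing was paired. The genes and gene lists were chosen with earlier results of these data known. Named beside the 10 genes were list members that passed (up to 8 per list), receptors of the 10, Stk40, Il1b, Nfkbia, and the 3 genes most correlated with each. Of the list members that passed against ZS under antimiR, only Cxcl14 was named. Ccr7, the receptor of Ccl21, was not measured. Alternatives were other normalizations, leaving out the dimmest 30% of genes, array weights, robust variance fitting with a trend, fewer groups in the fit, the mean of all probe sets, a smooth muscle covariate, and each array left out. Fits were tested on simulated data. Sequences are from RefSeq (GRCr8).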

Additional observations from a re-analysis of the deposited data

Results flagged for a closer look

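Of 60 sets of values (10 genes in 6 groups), 3 held a rat far from the others of its group, and chance alone flags about 1 in 20 such sets. Ccl7 stood at 4.35 in knockout ZD rat 37, and the other 5 rats lay between 4.06 and 4.16. Cxcl10 stood at 3.35 in 20-week antimiR rat 4, with the others between 3.86 and 3.99. Cx3cl1 stood at 7.28 in knockout ZS rat 32, with the others between 7.58 and 7.64. The diet effect on Ccl21 differed between knockout and unedited rats by -1.56, by the test of the difference itself.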

How the results depend on the processing

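The 3 chemokine calls for diet in unedited rats became 1 without the dimmest 30% of genes, where Cxcl1, Cxcl2, Ccl7 and Cxcl10 are not tested, and 0 with the smooth muscle covariate. The 2 calls for 5 weeks of antimiR against ZS also became 1 and 0 there. The 2 calls for 20 weeks of antimiR against ZD became 1 under median centring, robust fitting with a trend, fits of the same experiment and the mean of all probe sets, and 0 without dim genes, with only the groups compared and with the covariate. The 2 calls for diet in knockout rats became 1 under quantile normalization, median centring and robust fitting, and the 1 call for diet by genotype became 2 with array weights. With 1 rat left out, the calls ranged from 3 to 4 for diet in unedited rats, from 0 to 3 for 20 weeks of antimiR against ZD, from 1 to 2 for 5 weeks against ZS, from 1 to 3 for diet in knockout rats and from 0 to 3 for diet by genotype. The cause of these shifts was not tested.

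Signs turned only for differences that had not passed. With quantile normalization and array weights the diet difference of Cx3cl1 in unedited rats was 0.0017 and 0.012, and with array weights those of Ccl7 and Ccl11 in knockout rats were 0.17 and 0.13. With the covariate, Ccl11 and Cxcl12 were at 1.51 and 0.68 for diet in unedited rats, Cxcl2 and Ccl11 at -0.11 and 1.13 for diet in knockout rats, and Cxcl2 at -0.062 for 5 weeks of antimiR against ZS. With 1 rat left out, the unedited diet difference ranged from -0.92 to 0.010 for Ccl11 and from -0.057 to 0.072 for Cx3cl1, and the knockout one from -0.22 to 0.23 for Ccl7, from -0.93 to 0.50 for Ccl11 and from -0.049 to 0.61 for Ccl20.

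Counts over all genes moved by more than 1.5 times in some settings. With the covariate they were 119 for diet in unedited rats (1974 otherwise), 27 for 20 weeks of antimiR against ZD (92), 259 for 5 weeks against ZS (1291), 119 for 20 weeks against ZS (516) and 1527 for diet in knockout rats (3049). Array weights gave 557 for 20 weeks against ZD, 2131 for 5 weeks against ZS and 22 for 20 against 5 weeks (3 otherwise). Fits of only the groups compared gave 21, 140 and 0 for 20 weeks against ZD, 20 weeks against ZS and 20 against 5 weeks. Leaving out dim genes gave 7 for 20 against 5 weeks, and quantile normalization 2 for 5 weeks against ZD. With 1 rat left out they ranged from 1191 to 2424 for diet in unedited rats, 9 to 379 for 20 weeks against ZD, 0 to 4 for 5 weeks against ZD, 0 to 20 for 20 against 5 weeks, 771 to 1547 for 5 weeks against ZS, 166 to 690 for 20 weeks against ZS, 1566 to 3244 for diet in knockout rats and 615 to 1519 for diet by genotype. A fit of the same experiment could not be made for diet by genotype. No paired analysis was possible because no sample number is shared between groups. With 4 to 6 arrays per group, their number limits the precision.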

Other observations

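Ccl11, the eotaxin gene, stood at different levels in the arrays of the 2 experiments. Knockout ZS rats 30 to 33 were at 6.20, 9.24, 10.50 and 7.77, and knockout ZD rats ran from 5.96 to 9.27, whereas the 20 unedited rats ran from 3.74 to 7.62. After quantile normalization over all 30 arrays the group means were 8.25 (ZS) and 8.05 (ZD) in knockout rats and between 4.68 and 5.31 in the 4 unedited groups. Ccl21 ran from 10.02 to 12.12 in knockout ZS rats and from 8.81 to 9.68 in knockout ZD rats. In the 20 unedited rats it ran from 7.49 to 9.59. After the same quantile normalization its means were 11.01 and 9.05 in knockout ZS and ZD rats, and 8.28 to 8.81 in the unedited groups. Genotype, experiment and normalization cannot be told apart here, so neither difference between the sets was tested. Fibroblast markers had array means of 9.58 to 11.95 in the knockout and 8.24 to 9.99 in the unedited rats, smooth muscle markers 9.38 to 11.83 and 7.07 to 10.60, and the part of these cells was not tested.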
